A study of Mus musculus with 105 samples.

Results

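The 6 genes described here are Bmp4, which encodes a secreted ligand of the bone morphogenetic protein (BMP) pathway, Bambi and Smad6, which encode inhibitors of that pathway, and Id1, Id2 and Id3, which are targets of it. They were chosen by name for their roles in the pathway, with earlier results of these data known. All 6 were found in the bulk count table of the TX1072 line, in that of the 2 deletion lines (6 of 52108 genes in each) and in the single-cell table (6 of 34120 genes), and all 6 passed the filter on low counts in both bulk tables.

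The study followed female mouse embryonic stem cells (mESCs) as they left the naive pluripotent state and began to inactivate an X chromosome. The TX1072 line is an F1 hybrid of the C57BL6/J (B6) and Cast/EiJ (Cast) strains. It carries a doxycycline-responsive promoter before Xist on the B6 X chromosome and an rtTA transgene in Rosa26. The media described for these cultures list no doxycycline. At day 0 the cells were grown in 15% FBS with Lif and the 2 inhibitors of 2i medium. They were then differentiated in 10% FBS without 2i and Lif for 1, 2, 3 or 4 days on fibronectin. TXdXicB6 and TXdXicCast are derivatives that lack the X inactivation centre on the B6 or on the Cast X chromosome, and each is 1 clone. Bulk RNA was sequenced from 3 replicates per line and day (45 libraries), and single TX1072 cells were captured from 1 culture per day. TX1072 replicate 1 came from the same cell population as the single cells, so these data sets are not independent.

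BMP ligands bind a pair of type I and type II receptor kinases, which phosphorylate Smad1, Smad5 and Smad9. With Smad4 these enter the nucleus and switch on targets, of which the Id genes are the best known. Id proteins have a helix-loop-helix domain but no DNA-binding region, so that they hold E proteins and other helix-loop-helix factors away from DNA. In mESCs, BMP together with Lif is known to sustain self-renewal, in part through Id genes. Smad6 and Bambi are negative feedback regulators: Smad6 blocks receptors and Smads inside the cell, and Bambi is a transmembrane protein that resembles a type I receptor without a kinase.

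By the GENCODE annotation of mm10, Bmp4 lies on the minus strand at chr14:46383520-46390669, Smad6 on the minus strand at chr9:63953076-64022059, Id1 on the plus strand at chr2:152736251-152737410, Id2 on the minus strand at chr12:25093799-25097140 and Id3 on the plus strand at chr4:136143497-136145755. The locus of Bambi is not described here. The counts cover the exons of each gene, whose joined length ranged from 1160 bases for Id1 to 5074 bases for Bambi. Bmp4 overlaps the antisense genes Gm15217 and Gm15222, which held at most 2 and 10 counts in any library. The others overlap no annotated gene.

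RefSeq promoter windows (GRCm38.p6, 250 bases before to 50 after the annotated start) were on hand for 4 of the 6 genes, and not for Id1 and Bambi. The windows of Smad6, Id2 and Id3 are shown because these 3 genes are known as targets of BMP Smads. Capitals mark the letters searched for on both strands: GTCT, the core of Smad binding sites, GGCGCC, the core of a GC-rich Smad site, and GTCTAGAC, a palindrome that holds a GTCT on each strand. The windows are at chr9:64022010-64022309 (minus strand), chr12:25096043-25096342 (minus strand) and chr4:136143572-136143871 (plus strand). The starts of Id2 and Id3 used by RefSeq lie inside the GENCODE gene ranges.
Smad6: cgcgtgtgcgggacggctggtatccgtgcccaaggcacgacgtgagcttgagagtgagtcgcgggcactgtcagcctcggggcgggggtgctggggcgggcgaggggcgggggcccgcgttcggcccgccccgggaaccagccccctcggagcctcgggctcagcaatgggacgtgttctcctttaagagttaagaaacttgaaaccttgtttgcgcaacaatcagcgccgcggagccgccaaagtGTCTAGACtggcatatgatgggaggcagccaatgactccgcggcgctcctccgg
Id2: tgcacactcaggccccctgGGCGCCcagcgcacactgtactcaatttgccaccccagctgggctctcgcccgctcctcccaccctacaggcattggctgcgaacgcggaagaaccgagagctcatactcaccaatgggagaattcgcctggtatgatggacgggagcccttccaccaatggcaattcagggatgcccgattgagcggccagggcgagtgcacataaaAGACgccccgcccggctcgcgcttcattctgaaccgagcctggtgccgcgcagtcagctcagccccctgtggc
Id3: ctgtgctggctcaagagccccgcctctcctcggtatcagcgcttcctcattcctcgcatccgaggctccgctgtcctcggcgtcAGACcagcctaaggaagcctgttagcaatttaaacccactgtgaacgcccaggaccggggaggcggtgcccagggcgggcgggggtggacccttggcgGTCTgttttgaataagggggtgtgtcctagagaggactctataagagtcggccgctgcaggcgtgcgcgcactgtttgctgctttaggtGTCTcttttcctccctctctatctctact
The Smad6 window held the palindrome GTCTAGAC from 4 bases before the start, as did 0.213% of 32851 promoter windows (70). The Id2 window held GGCGCC 231 bases before the start, found in 11.9% of all windows, and 1 further GTCT 23 bases before it. Id3 had 3 copies of GTCT, at 166 and 68 bases before and 22 after the start, and the Bmp4 window, not shown, had 2. GTCT occurs in 88.0% of all windows, so its presence is common. The 4 windows were 60% to 66.3% G and C, against 53.8% over all windows. A match is a description of the letters, not of a bound site.

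The bulk libraries held 19827011 to 39628784 counts in TX1072, 20246434 to 49962859 in TXdXicB6 and 16906263 to 57920260 in TXdXicCast. Levels are given as CPM, counts scaled to the library total after TMM normalisation. Some libraries stood apart. The 3 TXdXicCast day 0 libraries were made from degraded RNA with gentler fragmentation, and their mitochondrial share of 0.135% to 0.320% was the lowest of the line. In TXdXicB6, day 0 replicate 1 and day 2 replicate 2 had 5.21% and 9.57% of counts assigned to an allele and day 2 replicate 1 had 20.3%, against 30.1% to 34.9% in the other libraries of the line. In TXdXicCast, day 3 replicate 3 had 22.9%, against 29.9% to 34.2% in the others. In TX1072, day 0 replicate 3 and day 3 replicate 2 had mitochondrial shares of 7.90% and 8.57%. Every change of TXdXicCast from day 0 rests on the degraded libraries, and its changes from day 1, which do not use them, are given below.

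The marker genes followed the label of differentiating mESCs. In TX1072, the summed level of 6 naive pluripotency genes, among them Nanog and Esrrb, was 2600 ± 156 CPM at day 0, fell to 896 ± 66.7 CPM within a day and was 335 ± 35.7 CPM on the last day (SD, n = 3). The 5 formative genes, with Dnmt3b the most abundant, rose from 279 ± 35.8 CPM to 1249 ± 49.3 at day 1 and 3098 ± 40.3 at day 2. Markers of other cells moved as well by day 4, when 30.2% of all genes were called higher and 29.4% lower. The 6 smooth muscle genes rose from 2.34 ± 0.147 to 619 ± 41.2 CPM, mostly Tagln, with 6 of 6 passing the test. The 5 mesoderm and primitive streak genes went from 14.7 ± 2.07 to 224 ± 101 CPM, mostly T. Of them 4 were tested, of which 3 were higher and 0 lower. The 6 primitive endoderm genes, mostly Dab2, rose from 5.61 ± 1.24 to 34.0 ± 1.06 CPM, with 6 of 6 passing. Most of the smooth muscle and primitive endoderm genes were under 1 CPM at day 0, and genes that low pass the filter on low counts mainly through days on which they are higher. The other lists were mixed. The 5 trophoblast genes summed to 74.8 ± 16.9 CPM at day 0, mostly Tfap2c and with Hand1 at 0, and to 98.7 ± 1.53 CPM at day 4, mostly Krt7 (2 higher and 2 lower of 4 tested). The 4 neural genes, mostly Nes, summed to 77.9 ± 18.97 and 185 ± 13.8 CPM (3 higher, 1 lower, and 0 lower without day 0 replicate 2 or 3 or day 4 replicate 1 or 2), and the 5 fibroblast genes to 24.95 ± 4.37 and 15.7 ± 1.03 CPM (1 higher and 2 lower of 4 tested). The part of these cell types in the results below was not tested. In bulk samples, fewer cells of a type and less RNA per cell cannot be told apart.

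In TX1072, withdrawal of 2i and Lif was followed within a day by a sharp rise of the ligand and of 2 of the 3 Id genes described here. From day 0 to day 1, Bmp4, Id1 and Id2 rose, Bambi fell, and Smad6 and Id3 did not pass the test. That is 4 of 6 genes called at an adjusted p of 0.05 (edgeR's quasi-likelihood test with Benjamini-Hochberg adjustment over 18871 genes), where 47.0% of all genes tested were called. The rise differed in length: Bmp4 was back near its day 0 level at day 2, Id1 and Id3 were highest at day 2, and Id2 was highest at day 1 and stayed high. At day 2, 5 of 6 genes differed from day 0 (all but Bmp4), where 56.0% of all genes did. With the replicate number as a block, Id3 at day 1 and Bmp4 at day 2 passed as well. Between days 1 and 2, Bmp4, Smad6 and Id2 fell and Id3 rose, 4 of 6 against a background of 39.2%, with Id3 no longer called without day 1 replicate 3 (0.78, adjusted p = 0.056). From day 1 to day 4 all 6 genes fell, against a background of 28.1% of genes called lower, though the Bambi call was lost without day 4 replicate 3 (-0.36, adjusted p = 0.060). By day 4, Id1, Id2 and Bmp4 were above day 0 and Smad6 and Bambi below it, so that 5 of 6 were called, where 59.6% of all genes were.

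**Figure D1:**
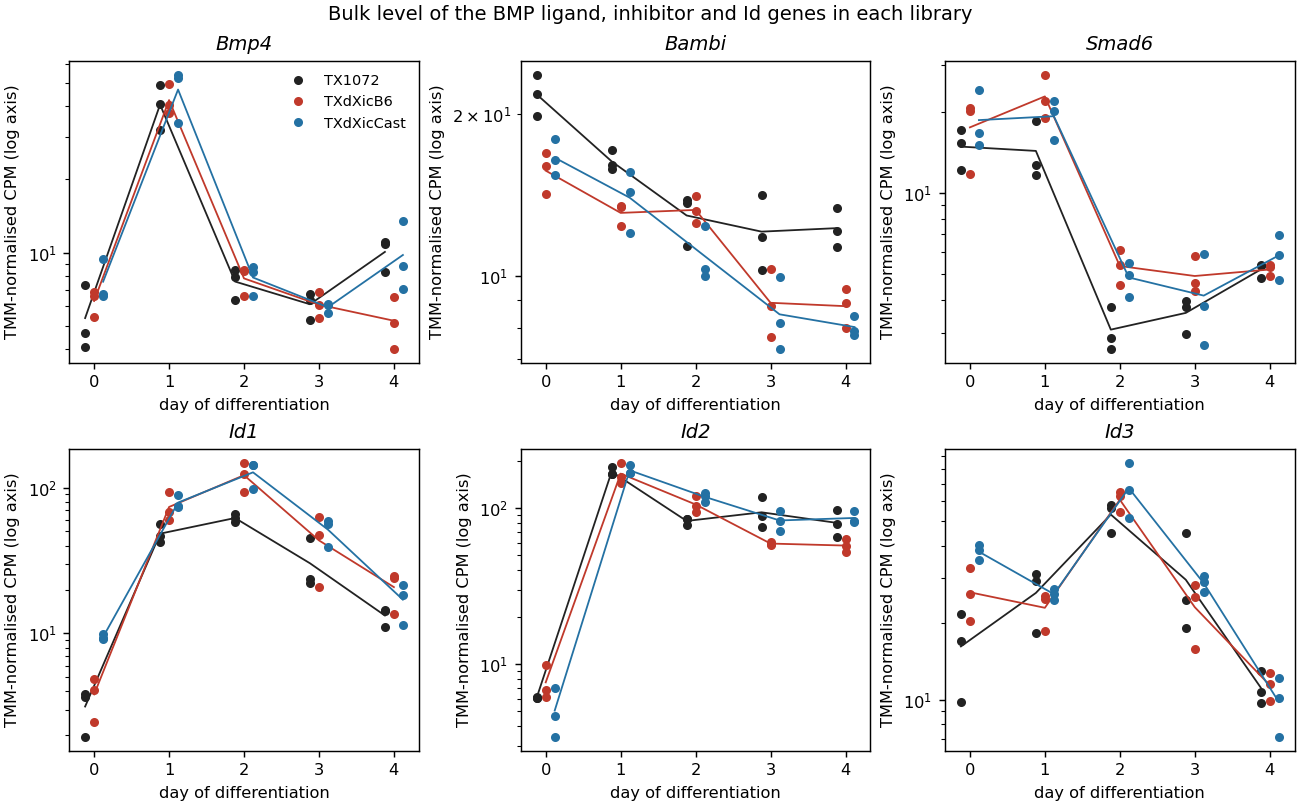
TMM-normalised CPM (log axis) of each gene on days 0 to 4, with a dot per library (3 per line and day) and lines through the mean of each line. Bmp4 stands out at day 1 in all 3 lines, with TX1072 libraries between 31.9 and 49.1 CPM, and Smad6 drops between day 1 and day 2.

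The Bmp4 level was 4.09, 7.35 and 4.68 CPM in the 3 TX1072 libraries of day 0 and 31.9, 49.1 and 41.1 CPM at day 1. At day 2 it was 8.49, 7.91 and 6.38 CPM, and at day 4 it was 8.34, 10.8 and 11.01 CPM. Day 1 was far above every other day, and the libraries of days 0 and 4 did not overlap either. The change from day 0 was 2.93 ± 0.22 (log2 ± SE, 7.60-fold, adjusted p = 4.0e-09) at day 1 and 0.91 ± 0.21 (adjusted p = 1.1e-03) at day 4. Between day 1 and day 2 the level fell by 2.42 ± 0.21 on the log2 scale (adjusted p = 5.2e-08). At day 2, the log2 difference from day 0 was 0.50 ± 0.21 (adjusted p = 0.053). It passed with the replicate number as a block, at 0.52 (adjusted p = 0.027; 0.0104 to 0.0738 over all settings tried), with no filter, DESeq2 or its size factors, and without day 0 replicate 2, at 0.80 (3.5e-03), or day 2 replicate 3, at 0.62 (0.035).

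In the deletion lines Bmp4 was also highest at day 1. In TXdXicB6 the level was 5.43, 6.88 and 6.64 CPM at day 0 and 49.5, 40.4 and 37.4 CPM at day 1, a log2 change of 2.75 ± 0.22 (adjusted p = 3.6e-11). In TXdXicCast it was 6.74, 9.37 and 6.65 CPM and then 54.0, 52.5 and 34.3 CPM, a change of 2.63 ± 0.21 (4.9e-11). Within each line the libraries of the 2 days did not overlap. Against day 0, the values at day 4 were -0.26 ± 0.22 (0.31) in TXdXicB6 and 0.37 ± 0.21 (0.12) in TXdXicCast, and neither passed. The second passed without day 0 replicate 2 (0.55, adjusted p = 0.041) or day 4 replicate 2 (0.54, 0.030).

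Bambi, the decoy receptor, declined slowly. Its TX1072 libraries held 19.8, 21.8 and 23.7 CPM at day 0, 16.1, 17.1 and 15.8 CPM at day 1 and 13.4, 12.1 and 11.3 CPM at day 4. The 3 days did not overlap. The log2 change from day 0 was -0.41 ± 0.13 at day 1 (adjusted p = 0.016) and -0.82 ± 0.13 at day 4 (3.6e-05). The first did not pass with no filter on low counts (-0.36, 0.093; range over settings 0.0157 to 0.0926), without day 0 replicate 3 (-0.35, 0.063) or without day 1 replicate 1 (-0.40, 0.050) or 3 (-0.35, 0.089). In TXdXicB6 the mean level was 15.7 ± 1.39 CPM at day 0 and 8.78 ± 0.727 at day 4, and in TXdXicCast it was 16.6 ± 1.31 and 8.03 ± 0.342 CPM (SD, n = 3). The day 4 changes were -0.84 ± 0.13 (3.6e-06) and -1.04 ± 0.13 (8.3e-08), the latter against degraded libraries. At day 1 neither line passed, with -0.26 ± 0.13 (0.10) and -0.25 ± 0.13 (0.11). The latter passed without day 0 replicate 2 (-0.34, 0.041) or day 1 replicate 3 (-0.37, 0.032).

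Smad6, the inhibitory Smad, held its level for a day and then dropped. In TX1072 it was at 12.2, 15.3 and 17.2 CPM at day 0, at 11.7, 18.6 and 12.8 CPM at day 1 and at 3.77, 2.88 and 2.62 CPM at day 2. The libraries of days 0 and 1 overlapped, and all libraries of day 2 lay below them. At day 1 the log2 difference was -0.05 ± 0.19 (adjusted p = 0.85). From day 1 to day 2 it fell by 2.22 ± 0.20 (1.1e-07), and at day 4, with 5.40, 4.80 and 5.34 CPM, it was still below day 0 by a log2 change of -1.52 ± 0.20 (2.3e-06). The drop recurred in TXdXicB6, from 22.9 ± 4.34 to 5.34 ± 0.799 CPM between days 1 and 2 (-2.10 ± 0.24, 7.3e-08), and in TXdXicCast, from 19.3 ± 3.24 to 4.84 ± 0.714 CPM (-1.99 ± 0.24, 1.9e-07). In TXdXicB6 the day 1 value against day 0 was 0.38 ± 0.23 (0.17), which passed with the replicate block (0.40, 0.029; range over settings 0.0293 to 0.215).

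Id1 rose sharply in the first day and was highest at day 2. Its TX1072 libraries held 1.95, 3.82 and 3.69 CPM at day 0, 46.5, 55.9 and 42.5 CPM at day 1 and 62.1, 58.0 and 65.5 CPM at day 2. At day 4 they held 14.3, 11.1 and 14.4 CPM. No library of any later day overlapped with day 0. The log2 change from day 0 was 3.97 ± 0.27 at day 1 (adjusted p = 1.6e-09), 4.32 ± 0.28 at day 2 (2.7e-10) and 2.10 ± 0.27 at day 4 (1.9e-06). The step from day 1 to day 2, 0.36 ± 0.23, did not pass (0.23) except in a fit of these 2 days alone (0.041; range over settings 0.0409 to 0.302).

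In the deletion lines Id1 was at 3.82 ± 1.24 CPM (TXdXicB6) and 9.46 ± 0.400 CPM (TXdXicCast) at day 0 and reached 122 ± 27.1 and 127 ± 26.2 CPM at day 2. Against day 0 these were log2 changes of 4.98 ± 0.35 (1.7e-12) and 3.75 ± 0.32 (7.6e-11). The step from day 1 to day 2 was 0.72 ± 0.28 (0.051) and 0.69 ± 0.28 (0.059), and passed with the replicate block in both lines, at 0.70 (2.5e-03) and 0.70 (2.4e-03), and with DESeq2 at 0.74 (0.037) and 0.72 (0.040), as well as with both other scalings, no filter on low counts and a fit of the 2 days alone. Over all settings the adjusted p ranged from 4.34e-07 to 0.190 in TXdXicB6 and from 7.51e-07 to 0.0637 in TXdXicCast. It also passed without day 1 replicate 1 (0.95, 0.029) or day 2 replicate 3 (0.90, 0.030) of TXdXicB6 and without day 2 replicate 2 of TXdXicCast (0.85, 0.036). At day 4 the changes from day 0 were 2.43 ± 0.33 (3.7e-07) and 0.85 ± 0.31 (0.015). The latter, taken from the degraded libraries, did not pass without day 4 replicate 1 of TXdXicCast (0.64, 0.096).

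Id2 had the largest change of the 6 at day 1. It went from 6.06, 6.06 and 6.16 CPM in the TX1072 libraries of day 0 to 165, 165 and 183 CPM at day 1, and stayed at 77.8, 85.0 and 85.1 CPM at day 2 and 65.5, 78.8 and 96.7 CPM at day 4. All later libraries lay far above those of day 0. The log2 change was 4.81 ± 0.18 at day 1 (28.1-fold, adjusted p = 9.6e-13), and 3.72 ± 0.17 at day 4 (1.9e-12). From day 1 to day 4 it fell by 1.09 ± 0.15 (4.5e-06). The rise at day 1 was 4.44 ± 0.20 (3.9e-16) in TXdXicB6, from 7.63 ± 2.00 to 166 ± 25.6 CPM. In TXdXicCast it was 5.13 ± 0.21 (4.3e-17), from 5.03 ± 1.86 to 174 ± 12.4 CPM.

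Id3 did not pass the test at day 1 in TX1072, was highest at day 2, as Id1 was, and was not above its start at day 4. Its TX1072 libraries held 9.82, 21.7 and 16.9 CPM at day 0, 29.3, 31.0 and 18.2 CPM at day 1, 56.2, 58.1 and 45.1 CPM at day 2 and 13.0, 9.72 and 10.7 CPM at day 4. Days 0 and 1 overlapped, as did days 0 and 4, and day 2 lay above both. The log2 change from day 0 was 0.70 ± 0.29 at day 1 (adjusted p = 0.053), 1.72 ± 0.29 at day 2 (6.3e-05) and -0.53 ± 0.29 at day 4 (0.13). The day 1 value passed with the replicate block (0.67, 0.046), with DESeq2 size factors (0.73, 0.045; range over settings 2.6e-06 to 0.083), with TMM from autosomal genes (0.75, 0.041), with no filter on low counts (0.76, 2.6e-06), and without day 0 replicate 2 (0.98, 0.016) or day 1 replicate 3 (0.95, 0.016). The day 4 value passed without day 0 replicate 1 (-0.80, 0.024) and with no filter on low counts (-0.51, 2.8e-03; range over settings 2.78e-03 to 0.212).

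In the deletion lines Id3 started higher, at 26.3 ± 6.29 CPM in TXdXicB6 and 38.0 ± 2.55 CPM in TXdXicCast. It reached 60.8 ± 5.52 and 67.5 ± 16.7 CPM at day 2 and then fell to 11.4 ± 1.45 and 9.80 ± 2.52 CPM at day 4. The changes from day 0 at day 2 were 1.20 ± 0.20 (8.1e-06) and 0.83 ± 0.19 (5.4e-04), and at day 4 they were -1.21 ± 0.20 (9.8e-06) and -1.95 ± 0.21 (2.9e-09). The TXdXicCast values rest on the degraded day 0 libraries. At day 1, Id3 was at -0.20 ± 0.20 (0.42) in TXdXicB6 and fell by 0.55 ± 0.20 (0.018) in TXdXicCast, a call lost without day 1 replicate 1 (-0.52, 0.056). TX1072 and the deletion lines were fitted in separate tables, from libraries made with different kits, so their differences were not tested.

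**Figure D2:**
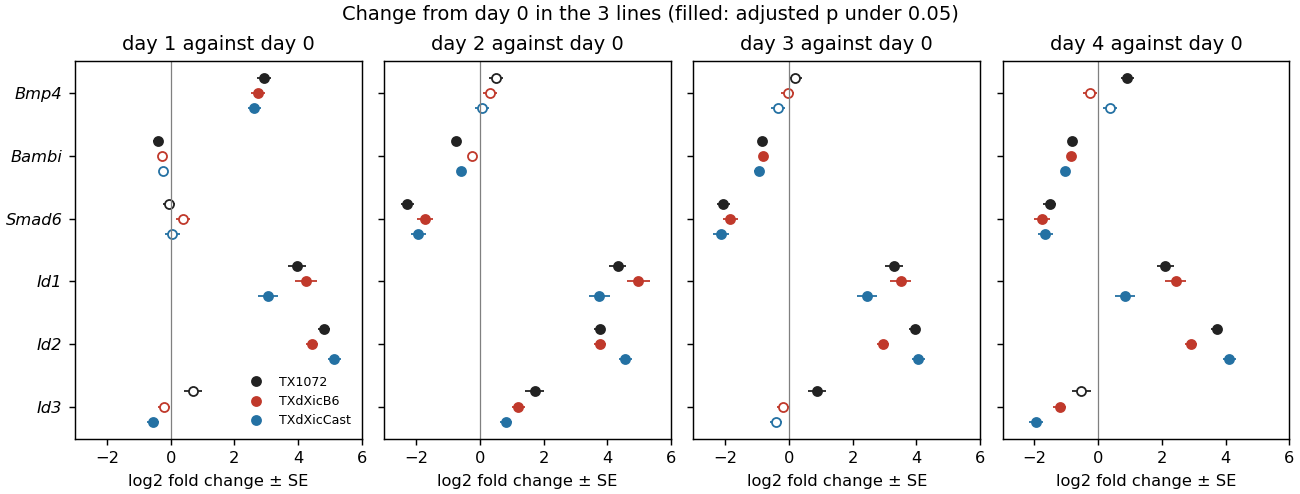
Log2 fold change from day 0 (± SE, x axis) of each gene (y axis) at days 1 to 4 in the 3 lines, filled where the adjusted p was under 0.05. Id2 lies between 2.91 and 5.13 in every line and day, while Smad6 moves to the left of 0 from day 2 on.

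Per kilobase of exon, which allows genes to be compared, the order changed once differentiation began. At TX1072 day 0 the Id3 level led with 9.02 ± 3.35 CPM per kb, followed by Smad6 (4.65 ± 0.784) and Bambi (4.29 ± 0.379), which did not differ beyond their SD. Id1 (2.72 ± 0.902), Id2 (2.499 ± 0.0238) and Bmp4 (2.39 ± 0.773) came last and were likewise within their SD of each other. At day 1 the order was Id2 (70.1 ± 4.31), Id1 (41.7 ± 5.94), Bmp4 (18.1 ± 3.84) and Id3 (14.6 ± 3.87), the last pair within their SD, followed by Smad6 (4.48 ± 1.16) and Bambi (3.22 ± 0.137). At day 4 it was Id2 (33.0 ± 6.43), Id1 (11.4 ± 1.60), Id3 (6.22 ± 0.931), Bmp4 (4.47 ± 0.665), Bambi (2.42 ± 0.201) and Smad6 (1.62 ± 0.103). Id2 and Id1 held the first 2 places on days 1 to 4 in all 3 lines.

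The deletion lines were made so that inactivation of the B6 and of the Cast X chromosome could be followed separately. Each line is 1 clone, so that clone and deleted allele cannot be told apart in any comparison of the lines, and replicates of a clone measure only the spread within it. Against day 0, 3 of 6 genes were called in TXdXicB6 at day 1 (background 45.7%), 4 of 6 at day 2 (56.1%) and 5 of 6 at day 4 (59.5%). In TXdXicCast the counts were 4 of 6 (58.9%), 5 of 6 (66.4%) and 5 of 6 (69.8%). Between days 1 and 2, Bmp4, Smad6 and Id2 fell and Id3 rose in both lines, and Bambi fell in TXdXicCast, which makes 4 of 6 genes (background 32.7%) and 5 of 6 (35.9%). With the replicate block, Smad6 in TXdXicB6 at day 1 and Id1 between days 1 and 2 in both lines passed as well. The Bambi call (-0.35 ± 0.13, 0.035) was lost in 4 of the 6 alternative settings, with an adjusted p of up to 0.216, and without replicate 2 or 3 of either day (-0.34 to -0.23). From day 1 to day 4 all 6 genes fell in TXdXicB6 (28.7% of genes called lower) and in TXdXicCast (30.1%), as in TX1072. In TXdXicCast these changes, free of the degraded libraries, were -2.26 ± 0.21 for Bmp4, -0.80 ± 0.13 for Bambi, -1.72 ± 0.24 for Smad6, -2.21 ± 0.30 for Id1, -1.01 ± 0.17 for Id2 and -1.40 ± 0.20 for Id3, with an adjusted p of 8.8e-06 at most.

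Compared directly, TXdXicCast and TXdXicB6 differed at days 0 and 4. At day 0, 2 of 6 genes were called, where 19.8% of all genes were (3929 genes, and 1907 to 5044 with 1 library left out). Id1 was higher in TXdXicCast, with 9.14, 9.34 and 9.91 CPM against 4.12, 4.87 and 2.46 (log2 difference 1.30 ± 0.34, adjusted p = 6.9e-03). Id2 was lower, with 4.63, 7.06 and 3.40 CPM against 6.17, 9.91 and 6.81 (-0.62 ± 0.19, 0.024). The groups of Id1 did not overlap and those of Id2 did. The Id1 call was lost without TXdXicB6 replicate 3 (1.07, 0.062). The Id2 call was lost in a fit of day 0 alone (-0.63, 0.21; range over settings 1.54e-03 to 0.206) and without TXdXicB6 replicate 2 (-0.38, 0.23) or TXdXicCast replicate 1 (-0.56, 0.095) or 3 (-0.35, 0.29). With DESeq2, Id3 was called as well (0.54, adjusted p = 0.032). In simulated data, for day 4 against day 0 of TXdXicB6 (19885 genes), 100 genes were changed 2-fold and 100 were changed 4-fold. There, 9.55% of DESeq2 calls were false, against 3.30% of edgeR calls. With 19.8% of genes called between the lines, these shares do not carry over to this comparison. RNA degradation and line cannot be told apart at day 0, since it marks all 3 TXdXicCast libraries.

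On days 1, 2 and 3, 0 of 6 genes differed between the deletion lines, where 0.402%, 0.372% and 1.26% of all genes were called (edgeR; 0 of 6 with DESeq2 as well). At an unadjusted p under 0.05 there were Bambi at day 2 and Id2 at day 3. These backgrounds are 80, 74 and 251 genes, and with 1 library left out they ranged from 23 to 91, 29 to 70 and 49 to 321 genes. At day 4, 2 of 6 genes differed, against a background of 5.86% (1165 genes, and 326 without TXdXicCast replicate 3). Bmp4 was higher in TXdXicCast, with 8.81, 7.07 and 13.4 CPM against 6.58, 5.11 and 4.01 (log2 difference 0.89 ± 0.21, adjusted p = 0.010), and so was Id2, with 82.1, 81.1 and 95.8 CPM against 62.9, 57.5 and 52.0 (0.59 ± 0.17, 0.034). Neither pair of groups overlapped. With the replicate block, neither passed, at 0.80 (0.055) for Bmp4 and 0.52 (0.12) for Id2. As coded, the block set the lines against each other at replicate 1, not at the mean over replicates. These values thus cannot show whether the calls hold once replicates are paired. Over all settings the adjusted p ranged from 2.23e-05 to 0.102 for Bmp4, the highest in a fit of day 4 alone, and from 4.08e-04 to 0.123 for Id2. The Bmp4 call was also lost without TXdXicCast replicate 3 (0.60, 0.20) or TXdXicB6 replicate 3 (0.76, 0.064). The Id2 call was lost without replicate 1 (0.66, 0.059), 2 (0.59, 0.097) or 3 (0.53, 0.12) of TXdXicB6, or replicate 3 of TXdXicCast (0.51, 0.23). Marker genes differed at day 4 as well. In TXdXicCast 2 of 6 primitive endoderm genes were higher (median log2 difference 0.72), and 2 of 6 smooth muscle and 2 of 4 fibroblast genes. Higher too were 1 of 5 trophoblast and 1 of 6 naive genes, and 2 of 5 formative and 1 of 3 core pluripotency genes were lower. No mesoderm or neural gene was called. What part these cell types had in the difference was not tested.

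The difference in change was tested as well. From day 0 to day 4, Id1 rose less in TXdXicCast (difference of log2 changes -1.59 ± 0.45, adjusted p = 0.016) and Id2 rose more (1.21 ± 0.26, 2.6e-03), so that 2 of 6 genes were called where 15.0% of all genes were (2979 genes, and 1780 to 4064 with 1 library left out). From day 0 to day 3, Id2 was called (1.12 ± 0.26, 8.5e-03, background 9.12%, which is 1814 genes and ranged from 618 to 3220 with 1 library left out). From day 0 to days 1 and 2, 0 of 6 were called (4.60% and 6.57%, which are 915 and 1307 genes and ranged from 92 to 2789 and from 219 to 2909 with 1 library left out), with Id1 and Id2 at an unadjusted p under 0.05 each time. With DESeq2, Id1 was called at both days (-1.23, adjusted p = 0.035, and -1.25, 0.030), Id2 at day 2 (0.77, 0.026) and Id3 at day 4 (-0.75, 0.044). With the replicate block Id1 also passed at day 1 (-1.29, 5.5e-03), day 2 (-1.29, 4.3e-03) and day 3 (-1.06, 0.014), and Id2 at day 2 (0.80, 0.028). Over all settings the adjusted p of the calls at day 4 ranged from 3.69e-12 to 0.0208 for Id1 and from 4.08e-07 to 2.66e-03 for Id2, and that of Id2 at day 3 from 1.11e-05 to 9.65e-03. The Id1 call at day 4 was lost without day 0 replicate 3 of TXdXicB6 (-1.36, 0.064) or day 4 replicate 3 of TXdXicCast (-1.37, 0.057), and the Id2 call at day 3 without day 0 replicate 3 of TXdXicCast (0.84, 0.055). Each of these rests on the degraded day 0 libraries. Taken from day 1, 0 of 6 genes differed in their change to day 4 (background 0.749%, 149 genes, and 24 to 229 with 1 library left out), with -0.39 ± 0.41 (0.82) for Id1 and 0.52 ± 0.24 (0.41) for Id2. Bmp4 and Id2 had an unadjusted p under 0.05 there, and 0 of 6 were called with DESeq2.

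The B6 share of the allele-assigned counts tells from which chromosome each gene was read. Over all autosomal counts this share was 50.5% to 51.4% in every library. At day 0, Bmp4 and Id1 were read mostly from the Cast allele in all 3 lines, and by mean share the alleles were nearer on all later days. This included TX1072 day 3, when the mean level of Bmp4 was back at 6.12 CPM and its mean share was 36.5%. The Bmp4 share in TX1072 was 10.5%, 17.6% and 4.17% at day 0, 32.3%, 31.3% and 33.0% after 1 day, and 30.6%, 49.3% and 47.6% on day 4. Day 0 lay below the later 2 days in every library. It rested on 77 allele-assigned counts in all, against 839 at day 1 and 181 at day 4, so the day 0 share is the least precise. In TXdXicB6 the shares were lower again at day 4. There Bmp4 went from 40.7%, 43.8% and 56.1% at day 3 to 22.7%, 40.4% and 21.1% at day 4. Id1 went from 49.6%, 46.9% and 48.9% at day 2 to 36.1%, 40.0% and 36.3% at day 4.

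From day 0 to day 4 the mean Bmp4 share went from 10.8% ± 6.74 to 42.5% ± 10.3 in TX1072, from 10.5% ± 5.63 to 28.1% ± 10.7 in TXdXicB6 and from 9.99% ± 8.76 to 37.3% ± 0.413 in TXdXicCast (SD, n = 3). Id1 went from 15.1% ± 14.04 to 44.6% ± 3.00, from 19.3% ± 14.04 to 37.4% ± 2.22 and from 12.3% ± 5.47 to 48.4% ± 10.4, on 45, 53 and 161 allele-assigned counts at day 0. The highest day 0 share of Id1 in TXdXicB6, 33.3%, rests on 3 counts. With 1 library left out, the rise in TXdXicB6, 17.6 points for Bmp4 and 18.1 for Id1, was as low as 11.4 points for Bmp4 (without day 4 replicate 2) and 11.1 for Id1 (without day 0 replicate 3). The groups did not overlap for either gene in any line. The exact two-sided permutation test gave p = 0.10 for each, the smallest it can give with 3 against 3, and 0.225 after Benjamini-Hochberg adjustment over the 18 tests of gene and line.

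For the other genes the shares were mixed. Bambi went from 29.9% ± 4.06 to 43.8% ± 4.56 in TX1072 without overlap (exact p = 0.10), and its groups overlapped in the deletion lines (exact p = 0.30 in each). The mean share of Smad6 lay between 39.6% and 49.6% on days 0 and 4 in all lines. Id3 went from 71.0% ± 6.56 to 55.2% ± 4.51 in TX1072 without overlap (exact p = 0.10), on 70 and 30 counts, whereas in TXdXicCast it went the other way, from 42.6% ± 13.3 to 69.5% ± 18.7, with overlap (exact p = 0.30) and with only 5 B6 and 1 Cast counts in day 4 replicate 3. In TXdXicB6 it went from 53.9% ± 12.4 to 57.7% ± 9.90 with overlap (exact p = 0.60). Id2 had only 9 allele-assigned counts at TX1072 day 0 and none in TXdXicB6 day 0 replicate 1, and its groups overlapped in all 3 lines (exact p = 0.60, 0.40 and 0.70). At day 4 the mean Id2 share in TXdXicCast was 32.9% ± 5.18. The exact test did not use the replicate numbers. Compared by number, Id3 in TXdXicCast and Id2 in TX1072 rose from day 0 to day 4 in every pair. In the other groups that overlapped, the pairs went both ways.

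**Figure D3:**
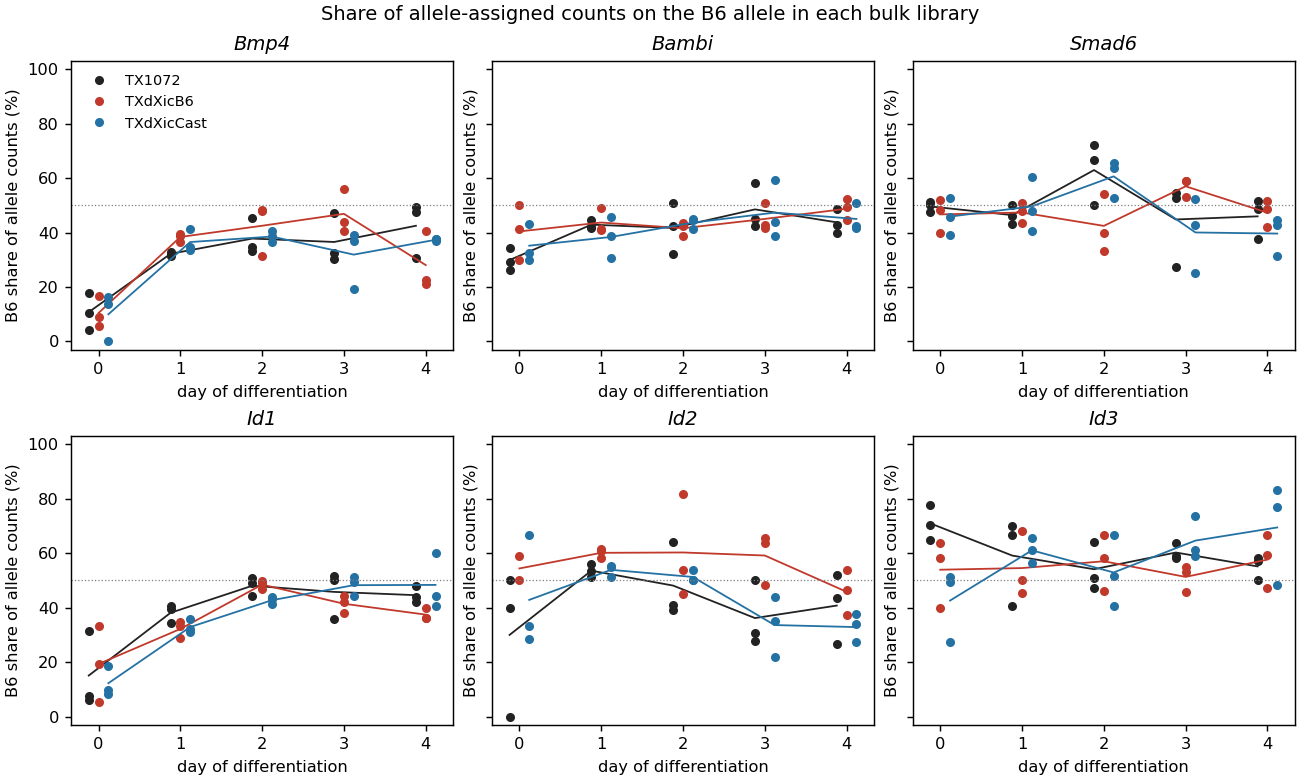
Share of allele-assigned counts on the B6 allele (%, y axis) by day, with a dot per library and lines through the mean of each line. The means of Bmp4 and Id1 lie between 9.99% and 19.3% at day 0 and between 28.1% and 48.4% at day 4, while those of Smad6 lie between 39.6% and 49.6% on these days.

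In single cells the level is the CPM of UMIs (distinct molecules counted), summed over the cells that the study retained, which numbered 277, 325, 341, 257 and 272 on days 0 to 4. All 2000 capture site names were distinct, and 1472 sites were retained by the study. Retained cells held 43060 to 300322 UMIs. With 1 culture per day there is no test between days, and intervals are exact and cover counting error only. The range over the 10 chip columns of a day, which share the culture, is given as a technical spread. The labels list each day 1 column both with and without a rapid run mark, and columns of the other days only without it. Day 1 and the rapid run thus cannot be told apart.

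The Bmp4 level was 11.7 CPM on day 0 (95% interval 10.7 to 12.8) and 59.5 CPM on day 1 (57.2 to 61.9). On the following days it was 11.98, 17.0 and 18.5 CPM. The chip columns of day 1, 34.8 to 92.1, lay above all columns of days 0, 2 and 3, and overlapped with those of day 4, 3.04 to 47.7. To compare shares of cells at 1 depth, each cell was thinned to 40000 UMIs, which no retained cell fell short of. A Bmp4 UMI was then seen in 14.4% of cells at day 0 (10.5% to 19.1%), 48.6% at day 1 (43.1% to 54.2%) and 17.3%, 15.6% and 19.1% on days 2 to 4. Without thinning these shares were 21.7%, 60.3%, 25.5%, 22.6% and 26.5%. The 10% of cells with most Bmp4 UMIs held 88.9% of them at day 0 and 50.3% at day 1.

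Of the inhibitors, Smad6 was seen in fewer cells than Bambi. Bambi went from 35.4 CPM at day 0 to 30.3, 18.9, 24.6 and 19.2 on days 1 to 4, and its share of thinned cells from 34.7% to 25.7% at day 4. Smad6 stood at 10.2, 12.2, 3.37, 5.69 and 3.65 CPM. Its share of thinned cells went from 22.0% (17.3% to 27.4%) at day 0 and 20.6% at day 1 to 8.80% (6.01% to 12.3%) at day 2 and 6.25% at day 4. On days 2 to 4 the top 10% of cells held 94.0% to 99.5% of the Smad6 UMIs.

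The Id genes were seen in the largest shares of cells from day 1 on. Id1 rose from 7.41 CPM at day 0 (6.58 to 8.31) to 120.5 CPM a day later (117 to 124), was highest at day 2 with 153 CPM (149.6 to 157), and stood at 92.9 and 51.5 on days 3 and 4. Its share of thinned cells was 8.66%, 65.5%, 61.9%, 56.0% and 38.2%. Id2 stood at 45.9, 248, 208, 251 and 128 CPM, with shares of 34.3%, 86.2%, 71.3%, 82.1% and 62.5%. Id3 was the gene already seen in most cells at day 0, with 102.7 CPM and a share of 59.2%. It stood at 119, 311, 225 and 76.8 CPM on the following days, with shares of 60.3%, 73.3%, 71.2% and 45.2%. The ratio of day 2 to day 1 was 2.61 for Id3 (2.52 to 2.69), 1.27 for Id1 (1.23 to 1.32) and 0.837 for Id2 (0.813 to 0.861). These intervals cover counting only. Over the chip columns, days 1 and 2 overlapped for Id1 (54.2 to 165 CPM and 90.6 to 264) and Id2 (137 to 394 and 110.2 to 313) and did not for Id3 (73.5 to 190.2 and 232 to 391.7).

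Capture sites recorded as empty give a background, though they are shallow. The 54 sites had a median of 6016.5 to 13761.5 UMIs per day, against 124651 to 171158 in retained cells. The means below are raw UMIs per site, so each pair is at unlike depth and does not compare levels. At day 4, Id1 had a UMI in 8 of 19 empty sites, with a mean of 1.11 UMIs per site against 8.60 in retained cells. For Id2 the counts were 10 of 19 sites and 1.53 against 21.5 UMIs, and for Bmp4 3 of 19 sites and 0.421 against 3.10 UMIs. At day 1, Id1 had a UMI in 6 of 7 empty sites (mean 1.14 against 15.4 UMIs) and Id2 in 5 of 7 (2.57 against 31.6), and at day 3 Id3 had one in 7 of 14 (2.79 against 28.2). At day 0, Bmp4 had a UMI in 0 of 10 empty sites and Id1 in 1. Bmp4 had one in 2 of 7 empty sites at day 1 (0.571 against 7.59 UMIs). At day 2 it had one in 1 of 4, with a mean of 1.25 UMIs against 1.48 in retained cells. The share of cells with an Id gene UMI was thus no sign of expression by itself on days when many empty sites held one too. With so few and so shallow empty sites, the low shares of Id1 at day 0 and of Bmp4 at days 0 and 2 could not be told from background either.

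**Figure D4:**
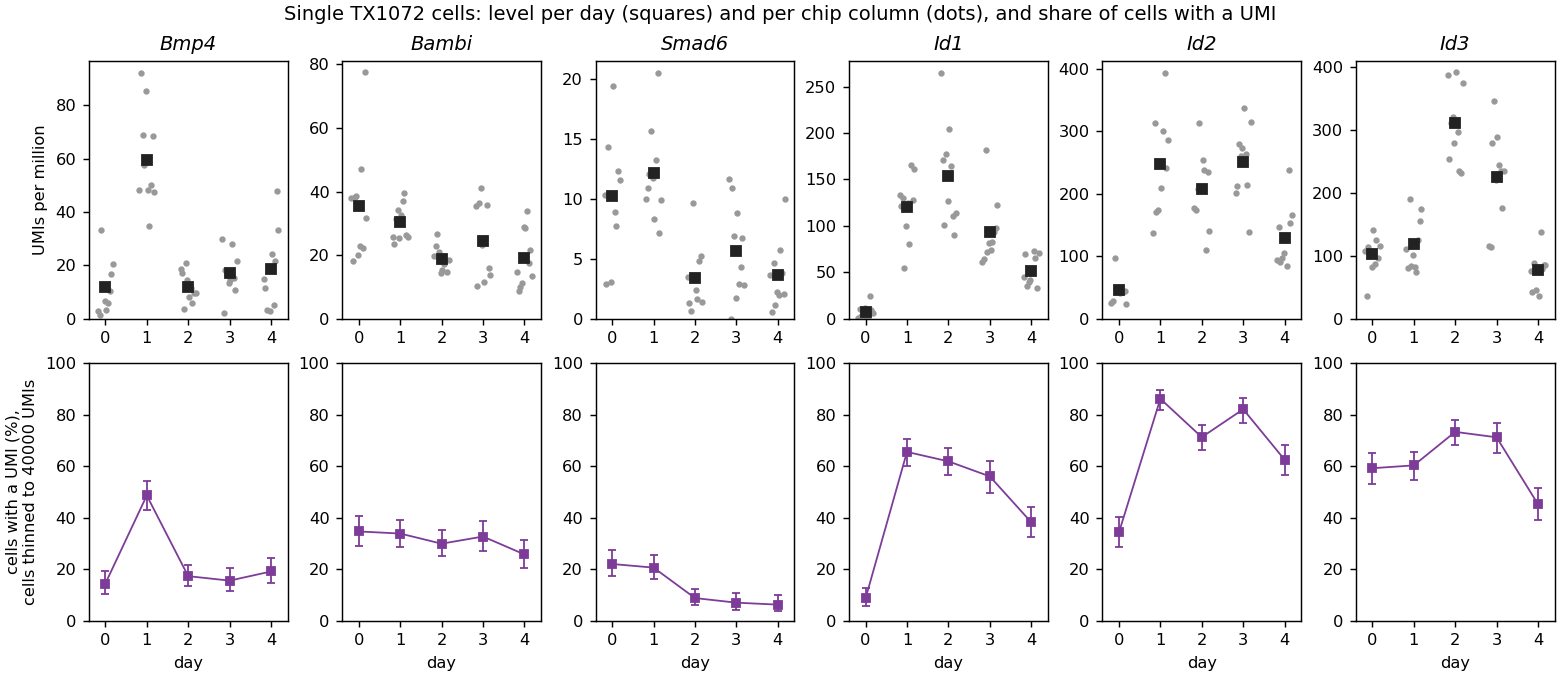
Top, CPM of UMIs of each gene by day in single TX1072 cells, as 1 square per day over all retained cells and 1 dot per chip column. Bottom, the share of cells with a UMI (%) after thinning to 40000 UMIs with exact 95% intervals, where Id1 goes from 8.66% at day 0 to 65.5% at day 1.

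Within a cell, the 3 Id genes were seen together most often on days 1 to 3. All 3 were detected in 1.81% of thinned cells at day 0 (5 of 277), 40.0% after 1 day, 46.0% at day 2, and 40.1% and 12.5% on the following days. None was detected in 25.3%, 3.38%, 11.1%, 4.67% and 11.4%. The share with none was thus higher at day 2 than at days 1 and 3, although the share with all 3 was the highest. Across cells of day 2, Spearman's rho of the thinned counts was 0.61 for Id1 and Id3, 0.54 for Id2 and Id3 and 0.51 for Id1 and Id2 (341 cells of 1 culture). On the other days the pair of Id1 and Id3 had 0.11, 0.36, 0.36 and 0.25 at days 0, 1, 3 and 4. Id1 and Id2 had 0.08, 0.20, 0.19 and -0.12, and Id2 and Id3 had -0.03, 0.18, 0.23 and 0.04. At day 4, Id2 was seen in 54.8% of cells with an Id1 UMI and in 67.3% of those without. Bmp4 counts had a rho between -0.07 and 0.21 with each of the other 5 genes on every day. These are descriptions of sparse counts, given without a test.

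**Figure D5:**
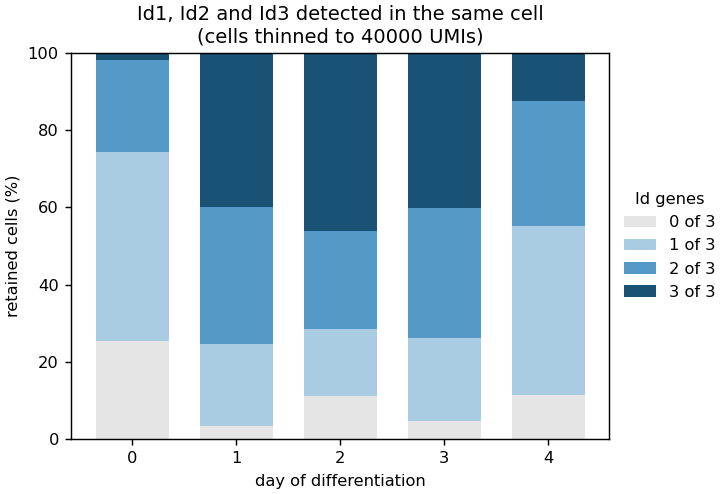
Share of retained cells (%, y axis) in which 0, 1, 2 or 3 of Id1, Id2 and Id3 had a UMI after thinning to 40000 UMIs, by day. The share with all 3 rises from 1.81% at day 0 to 46.0% at day 2 and is 12.5% at day 4.

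The other genes of the pathway are given by lists. Of all genes in TX1072, 23.5% were called higher and 23.4% lower at day 1, and 30.2% and 29.4% at day 4. Of 11 further BMP ligands, 9 were tested in TX1072, and 4 were higher and 1 lower at day 1 and 4 higher and 2 lower at day 4 (median log2 change 0.69, against -0.03 over all genes). Bmp6 fell by 2.78 ± 0.19 (adjusted p = 4.8e-10), from 7.10 ± 1.02 to 1.03 ± 0.171 CPM. Bmp15, an oocyte factor, went from 0.572 ± 0.135 to 0.0300 ± 0.0520 CPM, and Gdf6 from 0.0150 ± 0.0260 to 0.703 ± 0.306 CPM, both called and both close to 0 on 1 of the days.

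Of 10 receptors and co-receptors, 0 were higher and 7 lower at day 1 (median -0.55), and 4 were higher and 2 lower at day 4 (0.26). Bmpr1b, a type I receptor, went from 0.142 ± 0.0745 to 2.33 ± 0.863 CPM by day 4 (log2 change 4.01 ± 0.40, adjusted p = 7.7e-08). The co-receptor gene Rgma fell by 2.04 ± 0.31 at day 1 (3.0e-05). Its mean level was 5.04 CPM at day 0 and 2.37 CPM at day 4, a smaller fall. Rgmb, its relative, rose by 0.96 ± 0.15 by day 4 (2.8e-05). Of the 4 signal-transducing Smads, 3 were lower at day 1, and by day 4 Smad1 rose by 1.26 ± 0.11 (2.4e-08) and Smad5 by 0.34 ± 0.10 (6.9e-03), whereas Smad9, itself a BMP target, fell by 4.03 ± 0.35 (1.5e-08), from 4.98 ± 0.447 to 0.307 ± 0.268 CPM.

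Of the extracellular antagonists, those detected were mostly higher by day 4. Of 10 tested in TX1072 (14 listed), 3 were higher at day 1 (5 with no filter on low counts), 7 at day 2, 8 at day 3 and 9 at day 4, with 0 lower on any day (1 lower at day 1 without day 1 replicate 2). The shares of all genes called higher on these days were 23.5%, 28.8%, 28.1% and 30.2%. In TXdXicB6 8 of 11 were higher at day 4 (all genes 30.0%) and in TXdXicCast 9 of 11 (36.2%), with 0 lower in either. Fst, the activin and BMP binder follistatin, rose by 4.04 ± 0.27 (4.1e-10), from 4.58 ± 1.11 to 75.1 ± 28.3 CPM in TX1072. It was at 33.9 ± 15.0 CPM in TXdXicB6 and 27.2 ± 13.2 CPM in TXdXicCast at day 4. Cer1, an anterior endoderm antagonist, went from 0.0180 ± 0.0312 to between 1.05 and 9.91 CPM in TX1072, and Chrdl1 from 0.0390 ± 0.0461 to 0.841 ± 0.0991 CPM, both called. Of the 10 tested, 4 averaged under 0.5 CPM at day 0 (Cer1, Chrdl1, Nog and Chrd), as did 4 of the 9 ligands and 3 of the 8 other BMP targets tested. A gene that low passes the filter on low counts mainly through days on which it is higher, so the counts of higher genes in these lists are in part set by the filter. The smooth muscle and mesoderm markers rose over the same days, and their part in this result was not tested.

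Inside the cell, 1 of 5 further inhibitors was higher and 3 lower at day 1, and 3 were higher and 1 lower at day 4. Smad7, the other inhibitory Smad, fell by 1.83 ± 0.19 at day 1 (3.0e-07), when Smad6 was not called, and was at -1.02 ± 0.18 (1.1e-04) by day 4. Skil and Ski, repressors of Smad complexes, rose by 1.52 ± 0.14 (4.5e-08) and 0.74 ± 0.14 (1.5e-04) by day 4. Of 8 other BMP targets, 2 were higher and 4 lower at day 1, and 3 higher and 2 lower at day 4 (5 higher without day 4 replicate 1 or with no filter on low counts). Msx1 rose by 2.77 ± 0.61 at day 1 (1.1e-03) and 3.91 ± 0.60 by day 4 (1.8e-05), and Dlx3 by 4.86 ± 0.43 by day 4 (1.8e-08). Gata2, by contrast, fell by 7.00 ± 0.27 at day 1 (1.8e-12), from 42.2 ± 9.76 to 0.323 ± 0.0431 CPM. By day 4 it was partly back, at a mean of 7.31 CPM. Id4, a further Id gene, had a mean of 9.56 CPM at day 0 and of 1.73 CPM at day 4 in TX1072. Of the 3 E proteins that Id proteins bind, 2 were lower at day 1 and 2 higher at day 4, with Tcf4 up by 0.62 ± 0.12 (2.6e-04) and Tcf12 by 0.34 ± 0.10 (4.8e-03).

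The genes whose bulk course was most like each of the 6 were taken by Pearson's r of log2 CPM over the 15 TX1072 libraries, among 10929 genes. The libraries come from 5 days with 3 replicates each, so the points are not independent, and the values are descriptions. For Bmp4 these genes were Castor1 (0.97), Cyp2s1 (0.96) and Porcn (0.95), and in the deletion lines their r with Bmp4 lay between 0.87 and 0.94. For Id2 they were Ajuba (0.99), Grm6 (0.99) and Spry4 (0.98). For Id1 they were Egfl7 (0.98), Gm4969 (0.98) and Txnrd1 (0.97), and for Id3 Zbtb8a (0.92), Raet1e (0.90) and Asxl1 (0.89), of which Raet1e had only 0.45 and 0.29 and Asxl1 0.38 and 0.78 in TXdXicB6 and TXdXicCast. Smad6 was followed by Slc9a3r2 (0.98), Fam110b (0.98) and Sh3tc1 (0.97), and Bambi by Bod1 (0.96), Eif4e2 (0.95) and Cox5a (0.95). By Spearman's rho instead of r, 0 of the 3 genes were shared for Bmp4, Bambi and Smad6 and 1 of 3 for each Id gene. Among the 6 themselves, Id1 and Id2 had an r of 0.88 in TX1072, 0.92 in TXdXicB6 and 0.77 in TXdXicCast, and Bambi and Smad6 had 0.80, 0.69 and 0.85.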

How the data were processed

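The authors aligned reads with STAR 2.5.2b to the mm10 genome with strain variants masked, counted them per gene with featureCounts and assigned them to alleles with SNPsplit. The deposited values used here are raw counts per gene (bulk, also per allele) and UMI counts per capture site (single cells). Whether bulk counting used strand is not given in the sources used here. The 6 genes, the pathway and marker lists and the named genes were chosen with earlier results of these data known. Besides the 6 genes, those named are the 3 of each list with the largest absolute log2 change among those called in TX1072 at day 4, and for each of the 6 the 3 genes with the highest Pearson's r, among genes with a mean of at least 5 CPM. Id4 is named as a further Id gene.

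Counts were tested with edgeR 4.0.16 (quasi-likelihood F test, TMM, filterByExpr) in R 4.3.3, with all groups of a table in 1 fit (18871 genes in TX1072, 19885 in the deletion lines) and Benjamini-Hochberg adjustment over all genes, called at 0.05. Depth ranged from 16906263 to 57920260 counts per library. Alternatives were DESeq2 1.42.0, its size factors, TMM from autosomal genes, no filter on low counts, the replicate number as a block, a fit of the 2 groups alone and each library left out. Leaving out the 2 TXdXicB6 libraries with few allele-assigned counts, or the 3 degraded TXdXicCast libraries, was chosen after seeing the data. The replicates were differentiated on separate days, which makes the numbers pair samples. Deviations from group means of same-numbered libraries had a median r of 0.192 in TX1072, 0.392 in TXdXicB6 and 0.289 in TXdXicCast. For other pairs it was -0.116, -0.207 and -0.213. Deviations within a group cancel, so the values of other pairs are tied to the first and are no separate comparison. The script was tested on simulated data. Cells were those the study retained, with no further filter or doublet removal, and were thinned at random to 40000 UMIs for shares of cells.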

Additional observations from a re-analysis of the deposited data

Results flagged for a closer look

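In single cells, 7 of 30 groups of 10 chip columns had a column far above the other 9. The rule used, Dixon's gap test, flags about 1 in 20 groups if the values are normally distributed. Here a column sums at most 38 cells with skewed counts. At day 0, for example, the top 10% of cells held 95.9% of the Id1 UMIs. The rate of 1 in 20 thus does not apply, and 7 of 30 cannot be read as an excess. The values, in CPM of UMIs with the next highest column in brackets, were 77.6 (47.1) for Bambi, 23.9 (11.6) for Id1 and 96.5 (47.1) for Id2 at day 0, and 9.69 (5.27) for Smad6 at day 2. They were 182 (122) for Id1 at day 3, and 238 (166) for Id2 and 137 (88.1) for Id3 at day 4.

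The change over time differed between the deletion lines for 2 genes. The difference of log2 changes, TXdXicCast minus TXdXicB6, was 1.12 for Id2 from day 0 to day 3 (adjusted p = 8.5e-03, edgeR), 1.21 for Id2 from day 0 to day 4 (2.6e-03) and -1.59 for Id1 from day 0 to day 4 (0.016). All 3 use the degraded day 0 libraries of TXdXicCast.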

How the results depend on the processing

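From day 0 to days 1 and 4, few bulk values crossed the threshold or turned. With no filter on low counts, Bambi in TX1072 at day 1 was -0.36, Smad6 turned to 0.0111, Id3 was 0.76, and Id3 at day 4 was -0.51. Id3 at day 1 was 0.73 with DESeq2 size factors, 0.75 with TMM from autosomal genes and 0.67 with the replicate block, and Smad6 in TXdXicB6 at day 1 was 0.40 with the block. The block changed the call of 1 of the 6 genes in 7 of 120 comparisons of gene and days within a line and in 6 of 72 between the deletion lines, and no other call among these. Days 3 against 2 and 4 against 3 of the deletion lines were not among them. The causes were not tested. Bambi from day 3 to day 4 in TX1072 turned to -0.001728 in a fit of these days alone. With 1 library left out, day 1 values in TX1072 ranged from -0.48 to -0.35 for Bambi, -0.28 to 0.0820 for Smad6 and 0.44 to 0.98 for Id3, and Id3 at day 4 from -0.80 to -0.25. In TXdXicB6 they ranged at day 1 from 0.17 to 0.52 (Smad6) and -0.36 to -0.00984 (Id3), and at day 4 from -0.46 to -0.10 (Bmp4), none called. In TXdXicCast they ranged at day 1 from -0.37 to -0.15 (Bambi), -0.12 to 0.24 (Smad6) and -0.64 to -0.52 (Id3), and at day 4 from 0.0748 to 0.55 (Bmp4) and 0.64 to 1.07 (Id1). Other values that turned ranged from -0.0133 to 0.32 (Id2, TX1072 day 3 against 2), -0.0939 to 0.14 (Bambi, TX1072 day 4 against 3), -0.14 to 0.0339 (Bmp4, TXdXicB6 day 3), -0.35 to 0.0186 (Id3, TXdXicB6 day 3), -0.0261 to 0.0796 (Bambi, TXdXicB6 day 2 against 1) and -0.0277 to 0.24 (Bmp4, TXdXicCast day 2). Changes in B6 share ranged from -6.45 to 0.603 points (Smad6, TX1072), -2.71 to 3.32 (Smad6, TXdXicB6), -4.23 to 20.8 (Id2, TX1072), -17.1 to 1.91 (Id2, TXdXicCast) and -3.25 to 9.02 (Id3, TXdXicB6). The genes called between the deletion lines numbered 3929 at day 0 and 702 in a fit of that day alone; at day 1, 80 became 198 with no filter, 147 with DESeq2 and 35 with that day alone; at day 4, 1165 became 710 with the block and 501 with that day alone. At day 2, 74 became 200 with no filter and 140 with DESeq2, and at day 3, 251 became 575 with no filter, 477 with DESeq2 and 112 with the block. For the change from day 0 to day 4 they numbered 2979, and 4790 with the block, and from day 1 to day 4 149, 412 with no filter, 441 with the block and 355 with DESeq2. On a single day, the block set the deletion lines against each other at replicate 1. Its counts of 710 and 112, and its single-day calls among the 72, thus do not average over replicates. Single-cell levels counted as moved where they left the interval around the main value. Bulk values were judged by another rule, so the 2 are not compared. Over all refits with 1 chip column left out, 78 counted as moved and 222 did not. Of 30 levels, 13 moved with cells thinned to 40000 UMIs, 6 with all capture sites and 6 with the mean over cells of CPM.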
